A study of Homo sapiens with 24 samples.

Results

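Ephrins and semaphorins are guidance ligands that cells display or secrete, and the Eph receptors and plexins are the transmembrane receptors that bind them. The genes described here were taken by symbol: EFNA and EFNB (ephrins), EPHA and EPHB (Eph receptors), SEMA3 to SEMA7 (semaphorins) and PLXN (plexins). Of the 23106 gene symbols counted in every library, 51 had such a symbol. These were 5 ephrin-A and 3 ephrin-B genes, 9 EphA and 5 EphB receptors, 20 semaphorins (7 of class 3, 6 of class 4, 2 of class 5, 4 of class 6 and 1 of class 7) and 9 plexins (4 plexin-A, 3 plexin-B, plexin-C1 and plexin-D1). The rule used symbols and no measured value, but it was set with earlier results of these data known.

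Polyadenylated RNA was sequenced from 4 established human cancer cell lines: T47D from the breast, PC3 from the prostate, HCT116 from the colon and A549 from the lung. Each line was kept in 21% oxygen (normoxia) or in 0.5% oxygen for 16 h (hypoxia), with 3 libraries in each of the 8 groups, to ask which transcripts respond to low oxygen in cancer cells of different origin. All cultures had serum, L-glutamine, penicillin and streptomycin, and A549 and PC3 cells grew in F12K medium, HCT116 cells in McCoy's medium and T47D cells in DMEM, so that line and medium cannot be told apart. Nothing in the labels says that the replicates of a group were separate cultures, so the p values measure the spread between these libraries.

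Eph receptors are receptor tyrosine kinases that are clustered by ephrins on a neighboring cell. Ephrin-A ligands are held in the membrane by a lipid anchor and ephrin-B ligands span it, so that signals can pass into both cells and commonly lead to repulsion or altered adhesion. Semaphorins signal through plexins, whose cytoplasmic part acts on small GTPases, and class 3 semaphorins are secreted and generally need a neuropilin as co-receptor. In epithelial tumors both systems are known for effects on cell sorting, migration and the growth of blood vessels.

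Library totals ranged from 22698584 to 62850747 counts, and a library's floor of 3 counts corresponded to 0.0450 to 0.123 CPM (the unit of level used here, library counts scaled to a common total after TMM normalization of all 24 libraries). Hypoxia was visible in each line, as the HIF target genes CA9, NDRG1, VEGFA, ADM and ANKRD37 (5 of 5) were upregulated in all 4 lines. T47D cells carried ESR1, PGR and GATA3, and the keratins KRT8 and KRT18 were at 325 CPM or more in every library. EPCAM, another epithelial marker, was at 2.495 to 5.82 CPM in A549 cells and at 129.5 to 404 CPM in the other lines. Other defining markers were absent: in A549 cells NKX2-1, SFTPB and SFTPC reached no more than 0.111 CPM in any library, in HCT116 cells CDX2 was present but VIL1 and CDH17 reached no more than 0.133 CPM, and in PC3 cells HOXB13 was present while KLK3 had no count. Of the markers of other cell types, PECAM1, CDH5, DCN, COL1A2 and PTPRC stayed at or under 2.75 CPM, COL1A1 ranged from 10.4 to 56.7 CPM and CD68 from 0.825 to 42.2 CPM. The hypoxic HCT116 libraries differed among themselves in these HIF targets: NDRG1 was at 645, 2256 and 1383 CPM in replicates 1, 2 and 3, and ADM was likewise lowest in replicate 1 and highest in replicate 2. CD68 went from 5.44, 5.17 and 6.17 to 15.5, 42.2 and 22.0 CPM in HCT116 cells, and its part in the HCT116 results was not tested. In bulk RNA of this kind, fewer expressing cells and less RNA per cell cannot be told apart.

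Of the 51 genes, 49 had enough counts to be tested in at least 1 line and 35 in all 4. EPHA3 and EPHB1 were under the filter in every line, with at most 13 and 11 counts in any library. The other 14 were tested in 1 to 3 lines, among them EPHA1, which had at most 2 counts in each A549 library against a mean of 31.9 ± 2.59 CPM (SD, n = 3) in normoxic PC3 cells, and SEMA5A, which was tested in PC3 cells alone.

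Before hypoxia the lines carried different sets of these genes. Compared per kb of exon, so that genes of different length can be set side by side, EPHA2, a receptor found on many epithelial tumor cells, was the highest member in A549 (62.5 ± 9.35 CPM per kb, SD, n = 3), HCT116 (27.8 ± 6.40) and PC3 cells (70.9 ± 6.25). In T47D cells it was at 0.445 ± 0.112 CPM per kb, and the highest member was SEMA3C, a secreted semaphorin, at 116 ± 19.0. The libraries of T47D and of the other lines did not overlap for EPHA2: normoxic T47D cells had 2.11, 2.12 and 1.31 CPM and A549 cells 222, 256 and 299, a fitted 142.5-fold difference (log2 7.15 ± 0.27, adjusted p = 1.58e-12), where 46.6% of all genes tested differed by more than 2-fold between these lines. PLXNB2, a widely expressed plexin, was among the 3 highest members in A549 (23.1 ± 1.14), HCT116 (25.6 ± 5.29) and T47D cells (48.3 ± 5.39 CPM per kb). EPHA2 and PLXNB2 in HCT116 cells, and EPHB4 and the lipid-anchored SEMA7A in PC3 cells (25.9 ± 2.23 and 25.4 ± 1.501 CPM per kb), are neighbors in this order that lay within each other's spread. The remaining genes of the top 3 were SEMA3C in A549 (52.1 ± 1.93), SEMA6B in HCT116 (14.1 ± 0.838) and EFNA1 in T47D cells (22.4 ± 1.08 CPM per kb). Normoxic level differed between lines for 45 of the 46 members tested (97.8%), and 93.5% of all genes tested did so, so the members lay close to the background. SEMA4G was the exception (adjusted p = 0.153).

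**Figure D1:**
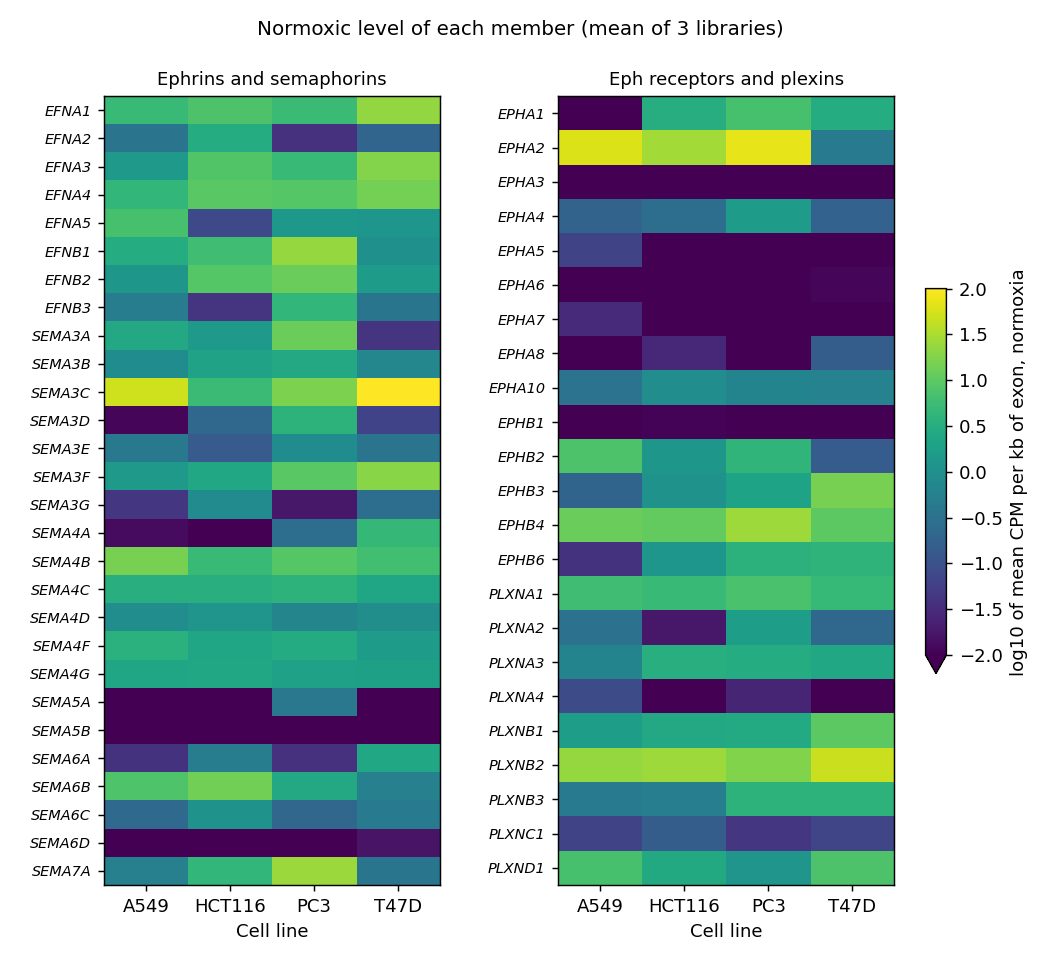
Normoxic level of each of the 51 genes (rows) in the 4 lines (columns), as log10 of the mean CPM per kb of exon over 3 libraries, with the color scale cut at -2 and 2. EPHA2 was high in A549, HCT116 and PC3 cells and low in T47D cells, where SEMA3C and PLXNB2 were highest.

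Hypoxia upregulated more of these genes than it downregulated in each line. A member was called when its adjusted p was under 0.05 and its fold change over 1.2. These fits did not pair libraries by replicate number. A replicate block does so, and its counts for PC3 and T47D cells are given below beside the other settings. In A549 cells 13 of 42 members tested were upregulated (31%) and 2 downregulated (4.76%), where 17.6% and 17.8% of all genes tested were called up and down. In HCT116 cells 20 of 39 were upregulated (51.3%) and 4 downregulated (10.3%), beside 23.3% and 27% of all genes. PC3 cells had 19 of 41 upregulated (46.3%) and 2 downregulated (4.88%), beside 16.6% and 15.7%. T47D cells had 6 of 44 upregulated (13.6%) and 0 downregulated, beside 6.55% and 6.69%, and 2 members were lower at an unadjusted p under 0.05 by edgeR and 2 by DESeq2, which called 0. The median log2 fold change of the members tested was 0.30, 0.56, 0.35 and 0.34 in A549, HCT116, PC3 and T47D cells, and that of all genes tested was -0.01, -0.03, -0.01 and -0.01. Hypoxic and normoxic libraries did not overlap for 19 of 42, 26 of 39, 25 of 41 and 16 of 44 members tested in the same order. This held for 47.8%, 60.2%, 51.2% and 31.8% of all genes tested, so a lack of overlap is common and by itself sets no member apart.

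These counts moved with a joint correction for the GC content and the length of the transcripts, whose separate parts were not tested. The median GC content of the members tested was 59.0% to 60.3% in the 4 lines, and that of all genes tested 48.2% to 48.5%, and the median transcript length was 5038 to 5262 bases for the members and 3804 to 3856 for all genes. With a correction of each library for GC content and transcript length, the members upregulated and downregulated numbered 9 and 4 in A549 (16.5% and 15.1% of all genes tested), 8 and 8 in HCT116 (18.1% and 22.7%), 12 and 4 in PC3 (13.1% and 11.5%) and 4 and 1 in T47D cells (6.87% and 5.96%). The median log2 fold change of the members then was 0.10, 0.01, 0.17 and 0.15. The excess of upregulated members over all genes was thus smaller in each line, and in HCT116 cells as many members were downregulated as upregulated. Values without the correction are given in what follows, with the corrected value where it ended or turned a call of a named member. The neighboring and pathway genes are given uncorrected, and whether the correction would end their calls was not tested.

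**Figure D2:**
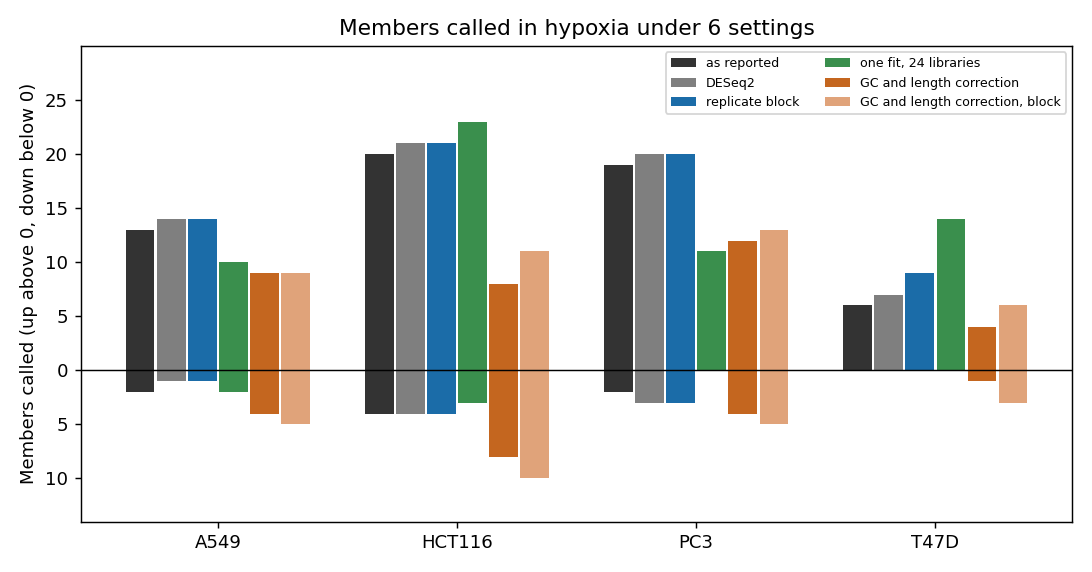
Number of members upregulated (bars above 0) and downregulated (bars below 0) in hypoxia in each line, as reported and under 5 other settings. In HCT116 cells the 20 upregulated and 4 downregulated members became 8 and 8 with the correction for GC content and transcript length.

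Single libraries also moved the counts. Where no share of all genes under the same setting is printed, whether the members moved apart from all genes cannot be read. Without normoxic replicate 2, 8 members were upregulated in A549 cells in place of 13. In T47D cells the 6 upregulated members became 0 without normoxic replicate 1, which left 9 higher at an unadjusted p under 0.05 by edgeR, 3 without normoxic replicate 2 and 11 without hypoxic replicate 3. The downregulated members became 1 in A549 cells without any 1 of the libraries, 0 in PC3 cells without hypoxic replicate 2 or normoxic replicate 1, and 2 in T47D cells without normoxic replicate 3 and 1 without hypoxic replicate 3. Scaling to total counts gave 9 upregulated and 3 downregulated members in A549 and 5 upregulated and 1 downregulated in T47D cells. With the replicate block PC3 cells had 20 members upregulated and 3 downregulated (17.4% and 16.6% of all genes), and T47D cells had 9 upregulated, with EFNA2, EPHB6 and SEMA4G added, and 0 downregulated (9.09% and 10.5%). Over the 4 lines, 39 of the 66 calls of members were kept whichever single library was left out.

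Across lines, 40 members were called in at least 1 line, as were 61.3% of all genes tested in at least 1. Of these 40, 22 were called in a single line. EFNA3, EFNB3, EPHB4, SEMA4B and SEMA6B were upregulated in 3 or more lines (6.97% of all genes), and none was downregulated in 3 or more (7.79% of all genes). With the GC content and length correction, EFNA3, EFNA4, EFNB3 and SEMA4B were upregulated in 3 or more lines, and with a replicate block the 5 genes were joined by EPHB6, PLXND1 and SEMA4G. EFNA1 was the single member called in opposite directions in different lines (1.14% of all genes tested). In the fits as reported, the 9 members tested and called in no line were EPHA4, EPHA5, EPHA6, EPHA7, EPHA8, PLXNB3, SEMA3D, SEMA4A and SEMA6D. Some were called under other settings. DESeq2 called SEMA4A up in T47D and SEMA6D up in PC3 cells. A single fit of all 24 libraries called EPHA4 and SEMA4A up in T47D cells, and SEMA3D and SEMA4A down in A549 cells on few counts. PLXNB3 was called down in HCT116 and PC3 cells with the correction. As reported, SEMA4A in T47D cells had 0.57 ± 0.20 (SE, adjusted p = 0.0713 by edgeR).

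**Figure D3:**
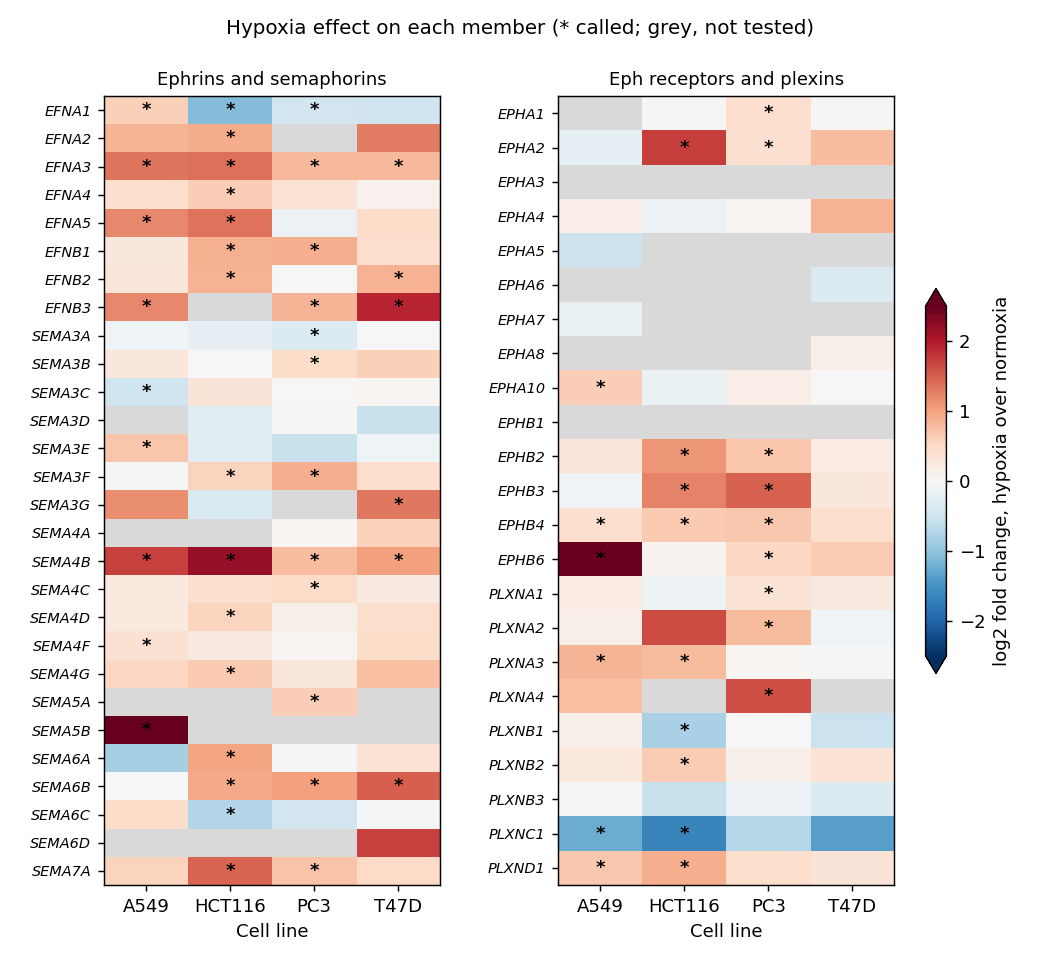
Log2 fold change, hypoxia over normoxia, of each gene (rows) in each line (columns), from red (higher in hypoxia) to blue (lower), with the color scale cut at -2.5 and 2.5, a star for a called change and grey for a gene not tested. SEMA4B and EFNA3 carry a star in all 4 lines, and PLXNC1 is blue in all 4 but starred in A549 and HCT116 cells.

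Of the 8 ephrins, 4 of 8 tested were upregulated in A549 cells, 6 of 7 in HCT116, 3 of 7 in PC3 and 3 of 8 in T47D cells (17.6%, 23.3%, 16.6% and 6.55% of all genes tested, the shares against which the counts of each family are to be read), and EFNA1 was the one ephrin downregulated, in HCT116 and PC3 cells. EFNA3, an ephrin-A ligand for EphA receptors, was upregulated in all 4 lines. In A549 cells it was at 3.59, 2.12 and 2.64 CPM in normoxic replicates 1, 2 and 3 and at 7.72, 6.70 and 6.62 CPM in the hypoxic ones (log2 fold change 1.34 ± 0.22 (SE), adjusted p = 8.93e-04). HCT116 cells had 15.5, 14.4 and 17.6 CPM in normoxia and 31.1, 52.6 and 41.1 in hypoxia (1.37 ± 0.21, adjusted p = 2.62e-04). Levels of hypoxic and normoxic libraries were separate in both lines, a 2.53-fold and 2.58-fold increase. PC3 cells went from 9.85, 9.62 and 10.1 to 19.4, 14.2 and 18.8 CPM (0.80 ± 0.14, adjusted p = 0.00431), and T47D cells from 28.1, 35.6 and 41.3 to 57.8, 60.3 and 69.2 CPM (0.81 ± 0.20, adjusted p = 0.0206). Here too no hypoxic library reached down to a normoxic one, and the T47D call was lost without normoxic replicates 1 or 2 (adjusted p = 0.0781 to 0.141). With the GC content and length correction the log2 fold changes were 1.26, 1.22, 0.71 and 0.70, all called. In the annotation 43.9% of the exonic bases of EFNA3 are shared with the readthrough gene EFNA4-EFNA3, which was not counted as a gene of its own, so reads of the 2 cannot be told apart.

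EFNA1, an ephrin-A ligand first known as a TNF-induced gene of endothelial cells, lies on the same chromosome arm and moved in both directions. In A549 cells it was at 13.9, 11.1 and 8.08 CPM in normoxia and 18.9, 14.1 and 16.8 in hypoxia (log2 fold change 0.60 ± 0.19 (SE), adjusted p = 0.0253), higher in hypoxia with no overlap. HCT116 cells had 13.3, 19.1 and 16.3 CPM in normoxia and 6.24, 9.54 and 7.73 in hypoxia (-1.08 ± 0.23, adjusted p = 0.00208), and PC3 cells 10.5, 10.9 and 13.3 and 9.39, 8.18 and 7.91 (-0.47 ± 0.14, adjusted p = 0.0325). In these lines every hypoxic library was below every normoxic one, by 2.12-fold and 1.38-fold. T47D cells, which had the highest level, were at 51.2, 46.7 and 47.9 CPM in normoxia and 30.8, 33.8 and 40.4 in hypoxia, again without overlap, but the difference was not called (-0.50 ± 0.19, adjusted p = 0.0955). The A549 call was lost when libraries were scaled to total counts and without normoxic replicates 2 or 3 or hypoxic replicate 1 (adjusted p = 0.0650 to 0.0788), and the PC3 call without normoxic replicates 1 or 3 or hypoxic replicates 2 or 3 (adjusted p = 0.0507 to 0.107). The effect in A549 cells exceeded that in HCT116 cells by 1.56 ± 0.27 on the log2 scale (adjusted p = 0.001101) and that in T47D cells by 1.03 ± 0.27 (adjusted p = 0.0428). Its difference from the effect in PC3 cells did not pass (1.02 ± 0.27, adjusted p = 0.0835). The test over all 4 lines gave an adjusted p of 0.00296.

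EFNA1, EFNA3 and EFNA4 are neighbors on chromosome 1 (GRCh37: EFNA4 chr1:155036213-155042029, EFNA3 chr1:155051313-155060014, EFNA1 chr1:155100352-155107375, all on the plus strand), with 9284 bases between EFNA4 and EFNA3 and 40338 between EFNA3 and EFNA1. EFNA4, the third ephrin-A gene of this cluster, was upregulated in HCT116 cells (9.75, 11.7 and 14.1 CPM in normoxia, 16.2, 22.0 and 16.9 in hypoxia, 0.61 ± 0.21, adjusted p = 0.0277), a call lost without normoxic replicate 1 or hypoxic replicate 2 (adjusted p = 0.0599 to 0.108). In A549, PC3 and T47D cells its log2 fold changes were 0.42, 0.36 and 0.11 with adjusted p = 0.0627, 0.0731 and 0.732, and with the GC content and length correction A549 (0.44, adjusted p = 0.0417) and PC3 (0.40, adjusted p = 0.0382) passed. Beyond the ephrins, ADAM15, a membrane metalloprotease gene 962 bases before EFNA4, was upregulated in A549 (0.51) and HCT116 cells (0.59). On the far side of EFNA1, SLC50A1, a sugar transporter gene, was downregulated in PC3 cells (-0.39), and DPM3, a subunit of dolichol-phosphate mannose synthase, in A549 (-0.38) and HCT116 cells (-0.98). In HCT116 and PC3 cells EFNA3 was thus upregulated and EFNA1 downregulated within this stretch.

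**Figure D4:**
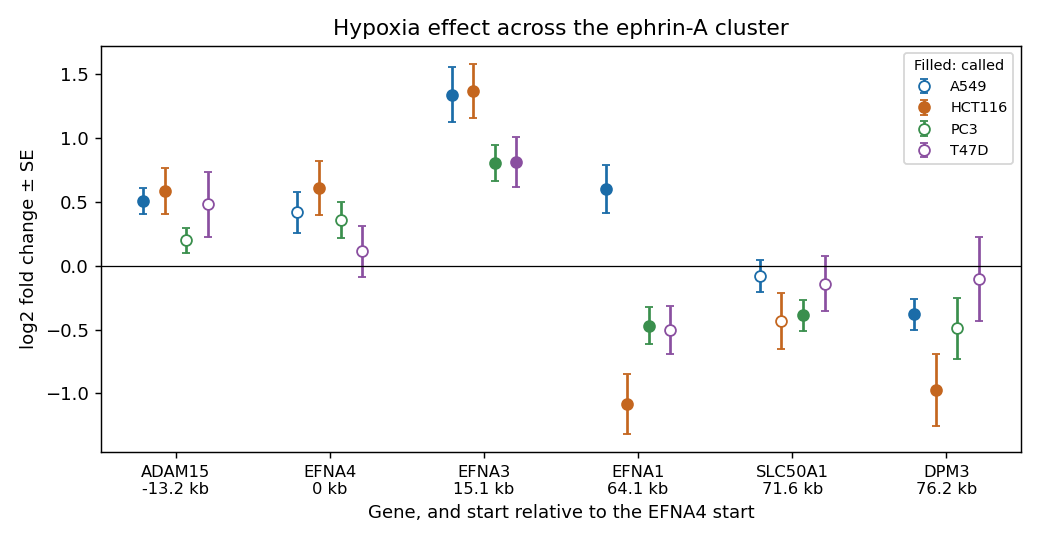
Log2 fold change, hypoxia over normoxia, with SE, of 6 neighboring genes on chromosome 1 in order of position, with the distance of each gene's start from that of EFNA4 in kb. Colors stand for the lines and filled points for called changes. EFNA3 is above 0 and filled in all 4 lines, and EFNA1 is above 0 in A549 and below 0 in the other lines.

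The promoter windows of these 3 ephrins are printed because the genes are neighbors and differed in direction, and that of EPHB4 because it was upregulated in 3 lines. They are RefSeq sequences on GRCh38.p14, 5′ to 3′ on the strand of the gene, from 250 bases before the start of transcription to 20 from it (270 bases), with capitals for matches to ACGTG or GCGTG, the core letters of the HIF response element, on the printed strand, or to their complements CACGT and CACGC, which are the same motif on the other strand.
EFNA4, chr1:155063490-155063759, plus strand: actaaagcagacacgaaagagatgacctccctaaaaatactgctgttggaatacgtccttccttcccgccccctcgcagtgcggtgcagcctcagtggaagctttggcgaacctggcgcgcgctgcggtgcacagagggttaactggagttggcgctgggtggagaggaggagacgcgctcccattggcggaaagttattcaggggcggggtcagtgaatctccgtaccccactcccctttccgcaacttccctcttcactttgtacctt
EFNA3, chr1:155078587-155078856, plus strand: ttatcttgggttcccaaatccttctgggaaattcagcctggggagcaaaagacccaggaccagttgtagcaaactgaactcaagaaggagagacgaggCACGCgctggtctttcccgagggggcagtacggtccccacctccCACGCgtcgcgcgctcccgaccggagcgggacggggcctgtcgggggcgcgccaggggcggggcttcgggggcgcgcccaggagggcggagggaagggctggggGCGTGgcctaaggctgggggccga
EFNA1, chr1:155127626-155127895, plus strand: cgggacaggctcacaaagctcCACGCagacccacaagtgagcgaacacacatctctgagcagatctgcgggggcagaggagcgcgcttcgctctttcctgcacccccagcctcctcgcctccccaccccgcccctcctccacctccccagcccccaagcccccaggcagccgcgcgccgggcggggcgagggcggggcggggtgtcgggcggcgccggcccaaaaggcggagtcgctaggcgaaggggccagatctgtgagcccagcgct
EPHB4, chr7:100827504-100827773, minus strand: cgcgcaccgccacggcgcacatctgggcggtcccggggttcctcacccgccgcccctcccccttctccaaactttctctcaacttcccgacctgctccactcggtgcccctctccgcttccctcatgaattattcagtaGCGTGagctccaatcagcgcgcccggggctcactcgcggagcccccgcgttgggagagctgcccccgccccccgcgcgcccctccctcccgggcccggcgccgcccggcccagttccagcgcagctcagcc
EFNA4 held 0 matches, EFNA3 3, EFNA1 1 and EPHB4 1. A match stood in 45.3% of the 35116 windows of all genes, and in at least 1 window of 28 of the 46 members with one (60.9%), beside 49.4% of all genes. The 3 windows listed for SEMA4B held none, which says only that these letters are not there, and EFNB3 and SEMA6B had no entry in the table.

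EFNA5 and EFNA2 completed the ephrin-A ligands. EFNA5 went from 35.9, 36.5 and 43.6 CPM to 93.8, 88.9 and 83.7 in A549 cells (log2 fold change 1.21 ± 0.12 (SE), adjusted p = 2.71e-05) with no overlap, and its call in HCT116 cells rested on 13 to 54 counts per library (1.36 ± 0.53, adjusted p = 0.0453) and was lost without normoxic replicates 2 or 3 or hypoxic replicate 3 (adjusted p = 0.108 to 0.221), and with the GC content and length correction (1.37, adjusted p = 0.0514). EFNA2 was upregulated in HCT116 cells (7.61, 6.23 and 8.01 CPM in normoxia, 13.4, 16.7 and 11.9 in hypoxia, 0.92 ± 0.21, adjusted p = 0.00334), which the correction ended (0.51, adjusted p = 0.0601). In T47D cells EFNA2 was called with the replicate block (1.35 ± 0.41, adjusted p = 0.0426) and not without it (adjusted p = 0.0939).

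Among the ephrin-B ligands, which bind mainly EphB receptors, EFNB3 was upregulated in the 3 lines in which it could be tested. T47D cells had 1.26, 1.19 and 1.02 CPM in normoxia and 5.05, 5.44 and 2.87 in hypoxia (log2 fold change 1.91 ± 0.35 (SE), adjusted p = 0.00525), A549 cells 1.72, 1.14 and 1.74 and 3.53, 3.15 and 3.87 (1.204 ± 0.25, adjusted p = 0.00352), and PC3 cells, the line with the most, 15.3, 14.9 and 12.2 and 28.8, 24.9 and 23.5 (0.85 ± 0.13, adjusted p = 0.00249). Every hypoxic library stood above every normoxic library in each of these lines, although hypoxic T47D replicate 3 was lower than the other two, and the T47D call was lost without normoxic replicate 1 (adjusted p = 0.0533). The corrected log2 fold changes were 1.05, 0.66 and 1.69, all called. In HCT116 cells EFNB3 had 2 to 10 counts per normoxic and 0 to 4 per hypoxic library and was not tested. EFNB1 was upregulated in PC3 cells, from 82.4, 81.7 and 69.1 to 171, 143 and 132 CPM (0.91 ± 0.12, adjusted p = 0.00148), and in HCT116 cells, from 21.5, 15.7 and 22.1 to 35.4, 38.4 and 37.6 (0.89 ± 0.19, adjusted p = 0.00180). Both changes were free of overlap, and the HCT116 call was not kept with the correction (0.44, adjusted p = 0.0505). EFNB2, the ephrin of arterial endothelium and a ligand of EphB4, was upregulated in HCT116 cells, from 45.6, 41.5 and 46.4 to 80.4, 83.4 and 84.5 CPM (0.87 ± 0.17, adjusted p = 0.00127), and in T47D cells, from 6.48, 5.58 and 11.2 to 16.2, 14.3 and 12.6 (0.88 ± 0.26, adjusted p = 0.0413). Its T47D call was lost when libraries were scaled to total counts, without normoxic replicates 1 or 2 or hypoxic replicates 1 or 2 (adjusted p = 0.0760 to 0.212) and with the correction (0.74, adjusted p = 0.0569), and PC3 cells, at 60.8, 64.2 and 55.4 CPM in normoxia and 61.1, 58.5 and 63.3 in hypoxia, overlapped (adjusted p = 0.996). An unnamed antisense long noncoding RNA covers 36.4% of its exonic bases and the strand setting of the counting is not given in the sources used here, so reads of the 2 cannot be told apart.

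Among the Eph receptors, 3 of 9 tested were upregulated in A549 cells (EPHA10, EPHB4 and EPHB6), 4 of 8 in HCT116 (EPHA2, EPHB2, EPHB3 and EPHB4), 6 of 8 in PC3 (EPHA1, EPHA2, EPHB2, EPHB3, EPHB4 and EPHB6) and 0 of 10 in T47D cells, beside 17.6%, 23.3%, 16.6% and 6.55% of all genes, and none was downregulated. With the replicate block 1 of the 10 was called in T47D cells, EPHB6. At an unadjusted p under 0.05, edgeR had 3 of these 10 receptors (EPHA4, EPHB4 and EPHB6) higher in T47D cells, and DESeq2 called none of them there. With the GC content and length correction the upregulated receptors were EPHB6 in A549, EPHA2 and EPHB3 in HCT116 and EPHB3 and EPHB4 in PC3 cells. EPHA2 in A549 and EPHA10 in HCT116 cells were then downregulated. EPHB4, a receptor of venous endothelium that many epithelial tumors express, was upregulated in 3 lines. PC3 cells had 162, 183 and 155 CPM in normoxia and 294, 267 and 243 in hypoxia (log2 fold change 0.66 ± 0.10 (SE), adjusted p = 0.00296), HCT116 cells 82.3, 63.3 and 67.1 and 113, 110.2 and 116 (0.65 ± 0.19, adjusted p = 0.0111), and A549 cells 78.9, 71.2 and 89.2 and 115, 106 and 99.6 (0.43 ± 0.12, adjusted p = 0.0148). T47D cells, with 56.6, 64.0 and 67.6 CPM in normoxia and 82.8, 89.4 and 85.6 in hypoxia, had a log2 fold change as large as that of A549 cells but were not called (0.43 ± 0.18, adjusted p = 0.131). In each of the 4 lines every hypoxic library was above every normoxic one. The A549 call was lost without normoxic replicates 1 or 2 (adjusted p = 0.0567 to 0.0805). With the GC content and length correction EPHB4 remained called in PC3 cells (0.37, adjusted p = 0.0143) and not in A549 (0.13, adjusted p = 0.275) or HCT116 cells, where the direction turned (-0.03, adjusted p = 0.906).

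EPHA2 was upregulated in HCT116 cells, from 145, 94.3 and 106 CPM to 222, 589 and 361 (log2 fold change 1.73 ± 0.31 (SE), adjusted p = 6.02e-04). The hypoxic libraries did not overlap with the normoxic ones but differed among themselves, with replicate 1 lowest and replicate 2 highest, the order that NDRG1 and ADM had in these libraries, and the part of this in the result was not tested. The call was kept whichever library was left out and with the correction (1.21, adjusted p = 0.00455). In PC3 cells EPHA2 went from 295, 319 and 267 to 424, 404 and 349 CPM (0.40 ± 0.11, adjusted p = 0.0197), without overlap, a call lost without normoxic replicate 1 or hypoxic replicates 1 or 2 (adjusted p = 0.0654 to 0.0826) and with the correction (0.17, adjusted p = 0.165). A549 cells, at 222, 256 and 299 CPM in normoxia and 227, 226 and 209 in hypoxia, overlapped and were not called (-0.23 ± 0.13, adjusted p = 0.180), and with the correction were called lower (-0.44, adjusted p = 0.00736). The effect in HCT116 cells was larger than that in A549 cells by 2.09 ± 0.43 and than that in PC3 cells by 1.42 ± 0.42 on the log2 scale (adjusted p = 0.00366 and 0.0265).

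EPHB3, known for its part in sorting cells along the intestinal crypt, was upregulated in PC3 cells, from 9.40, 10.5 and 8.63 to 30.3, 24.1 and 26.4 CPM (log2 fold change 1.47 ± 0.13 (SE), adjusted p = 1.92e-04), and in HCT116 cells, from 4.31, 5.50 and 5.73 to 11.1, 13.6 and 12.9 (1.25 ± 0.22, adjusted p = 6.32e-04). Both were free of overlap and both stayed called with the correction (1.21, adjusted p = 3.60e-04 and 0.61, adjusted p = 0.0464). T47D cells had the highest level, 57.5, 64.2 and 82.0 CPM in normoxia, with 77.5, 77.3 and 96.6 in hypoxia and overlapping libraries (0.28 ± 0.20, adjusted p = 0.360). A549 cells had under 2 CPM in every library (-0.08 ± 0.38, adjusted p = 0.887). The hypoxia effect in PC3 cells exceeded that in A549 cells by 1.59 ± 0.31 (adjusted p = 0.00817) and that in T47D cells by 1.17 ± 0.27 (adjusted p = 0.0163) on the log2 scale. EPHB6, a receptor without kinase activity, was upregulated in A549 cells on few counts, 4 to 16 per normoxic and 23 to 108 per hypoxic library (log2 fold change 2.47 ± 0.60 (SE), adjusted p = 0.00814), with summed counts of 32 and 181 and a ratio of 5.76 (95% exact interval 3.94 to 8.68, counting error only). In PC3 cells it went from 23.5, 18.2 and 17.6 to 33.9, 25.3 and 26.4 CPM (0.51 ± 0.15, adjusted p = 0.0277), a call lost without normoxic replicate 3 or hypoxic replicate 1 (adjusted p = 0.0543 to 0.103) and with the correction (0.26, adjusted p = 0.213). In T47D cells, at 14.1, 24.6 and 24.8 CPM in normoxia and 26.7, 37.8 and 35.4 in hypoxia, it was called with the replicate block (0.65 ± 0.18, adjusted p = 0.0273) and not without it (adjusted p = 0.0960). EPHB2 was called in HCT116 (log2 fold change 1.11) and PC3 cells (0.69), and neither call was kept with the correction (0.14, adjusted p = 0.670 and 0.22, adjusted p = 0.0724). The calls of EPHA1 in PC3 cells (0.42) and of EPHA10 in A549 cells (0.62) also ended with it (0.23, adjusted p = 0.0513 and 0.25, adjusted p = 0.358), and that of EPHA10 without normoxic replicates 1, 2 or 3 or hypoxic replicates 1 or 2 (adjusted p = 0.0609 to 0.174).

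The semaphorins had 4 of 16 tested members upregulated and 1 downregulated in A549 cells, 7 and 1 of 16 in HCT116, 7 and 1 of 17 in PC3 and 3 and 0 of 18 in T47D cells, where 17.6%, 23.3%, 16.6% and 6.55% of all genes were upregulated. With the replicate block SEMA4G was added to those upregulated in T47D cells. With the GC content and length correction SEMA3E, SEMA4B and SEMA5B were upregulated in A549 and SEMA3C, SEMA4B and SEMA7A in HCT116 cells. The upregulated ones were then SEMA3F, SEMA4B, SEMA6B and SEMA7A in PC3 and SEMA4B and SEMA6B in T47D cells. SEMA6B in A549 and SEMA3G and SEMA6C in HCT116 cells were downregulated with it. SEMA4B, a transmembrane class 4 semaphorin on chromosome 15 (GRCh37 chr15:90703836-90772911, plus strand), was upregulated in all 4 lines. It belongs to the set of shared hypoxia genes that the study defined in part on these libraries. The study also required HIF to bind near each gene of this set, which was not examined here. The direction of SEMA4B here is therefore not independent evidence. In A549 cells it rose from 99.0, 109.8 and 105 CPM to 358, 351 and 318 (log2 fold change 1.72 ± 0.11 (SE), adjusted p = 9.38e-07), and in HCT116 cells from 35.1, 32.9 and 39.6 to 78.0, 274 and 144 (2.18 ± 0.34, adjusted p = 2.81e-04). Groups were separate in both lines, at 3.29-fold and 4.52-fold, and among the hypoxic HCT116 libraries replicate 1 was again lowest and replicate 2 highest. PC3 cells went from 67.8, 64.5 and 54.8 to 99.0, 109.8 and 114 CPM (0.77 ± 0.11, adjusted p = 0.00174) and T47D cells from 36.6, 45.2 and 47.01 to 102, 96.2 and 68.8 (1.02 ± 0.21, adjusted p = 0.00994), in both cases without overlap. The T47D call was lost without normoxic replicate 1 (adjusted p = 0.103), and all 4 calls were kept with the correction (1.49, 1.63, 0.53 and 0.75). The effect in HCT116 cells was larger than in PC3 cells by 1.48 ± 0.36 (adjusted p = 0.00993) and than in T47D cells by 1.197 ± 0.36 (adjusted p = 0.0388), whereas the difference from A549 cells did not pass (0.58 ± 0.36, adjusted p = 0.281). Its nearest tested neighbors were IDH2, a mitochondrial isocitrate dehydrogenase 58127 bases away, which was upregulated in A549 (log2 fold change 2.19), HCT116 (1.64) and PC3 cells (0.35), and CIB1, 296 bases away, which was upregulated in A549 cells (1.03). SEMA6B had TNFAIP8L1, called up in A549 (0.49), HCT116 (1.01) and PC3 cells (0.44), and LRG1, called in no line. EPHB4 had TRIP6, called up in HCT116 cells (0.60), and the overlapping SLC12A9, called up in A549 cells (0.37). Its neighbor EPO was tested in T47D cells alone and called up (5.65). EFNB3 had DNAH2, called up in T47D cells (2.16), and WRAP53, called in no line.

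**Figure D5:**
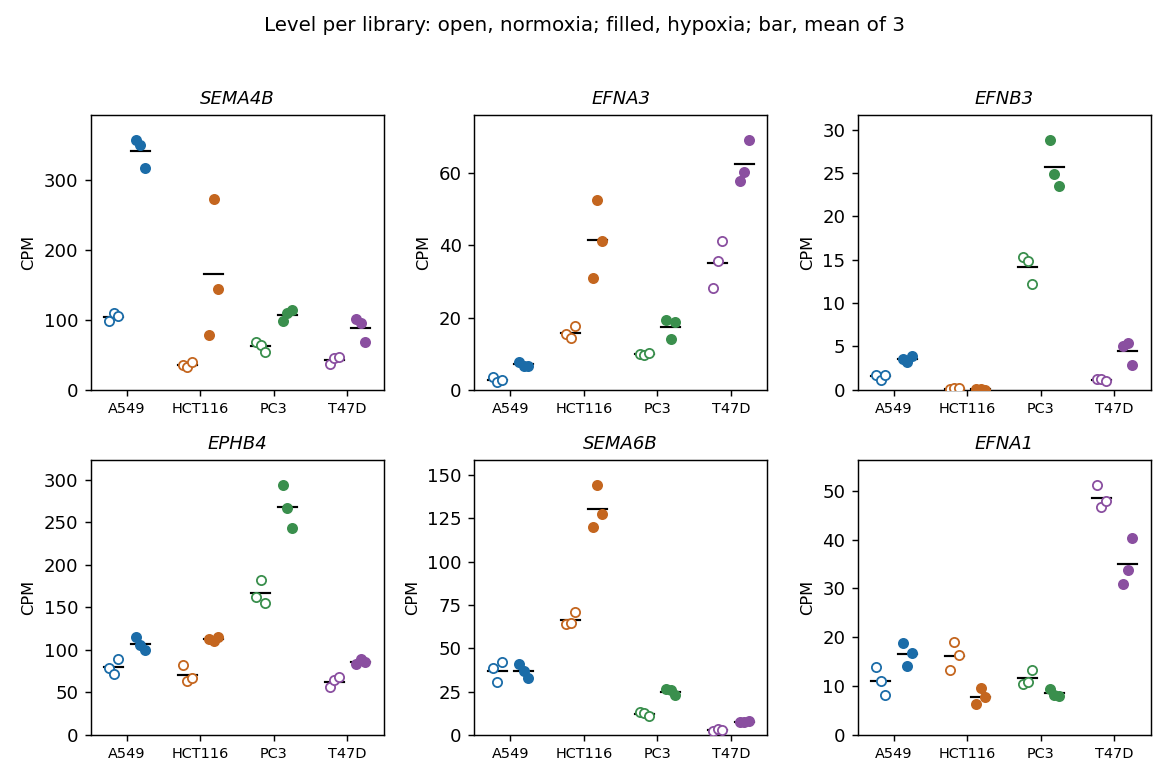
CPM of SEMA4B, EFNA3, EFNB3, EPHB4, SEMA6B and EFNA1 in each of the 24 libraries, by line, with open circles for normoxia, filled circles for hypoxia and bars for the mean of 3; each panel has its own linear axis from 0. EFNA1 was higher in hypoxia in A549 cells and lower in the other lines, SEMA6B overlapped in A549 cells, and the hypoxic HCT116 libraries of SEMA4B ran from 78.0 to 274 CPM.

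SEMA6B, a transmembrane class 6 semaphorin that binds plexin-A receptors, was upregulated in 3 lines and was not called in A549 cells. HCT116 cells rose from 63.9, 64.7 and 71.1 to 119.7, 144 and 127 CPM (log2 fold change 0.95 ± 0.18 (SE), adjusted p = 9.27e-04), PC3 cells from 13.2, 12.4 and 10.9 to 26.2, 25.7 and 23.0 (1.02 ± 0.12, adjusted p = 8.77e-04) and T47D cells from 1.99, 3.15 and 2.70 to 7.14, 7.33 and 7.99 (1.48 ± 0.27, adjusted p = 0.00544). Libraries did not overlap in these lines, while in A549 cells 38.5, 30.4 and 41.9 CPM in normoxia and 41.2, 37.1 and 32.9 in hypoxia were interleaved (0.01 ± 0.14, adjusted p = 0.956). The effect in A549 cells was smaller than that in HCT116 (by 1.05 ± 0.22, adjusted p = 0.00390), PC3 (by 1.05 ± 0.22, adjusted p = 0.0155) and T47D cells (by 1.54 ± 0.22, adjusted p = 2.78e-04), and the test over the 4 lines gave the smallest adjusted p of the members tested, 3.83e-04. The T47D call was lost without normoxic replicate 1 (adjusted p = 0.0597). With the correction SEMA6B, whose transcript has 69.7% GC, was called lower in A549 cells (-0.33, adjusted p = 0.0396), was not called in HCT116 cells (0.06, adjusted p = 0.810) and stayed called in PC3 (0.64, adjusted p = 0.00416) and T47D cells (1.08, adjusted p = 0.0143).

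SEMA7A, a lipid-anchored semaphorin that binds integrins and plexin-C1, rose in HCT116 cells from 21.6, 12.3 and 17.4 to 33.3, 66.9 and 43.1 CPM (log2 fold change 1.46 ± 0.26 (SE), adjusted p = 6.86e-04) and in PC3 cells from 93.8, 103 and 93.0 to 159.5, 168 and 157 (0.72 ± 0.09, adjusted p = 0.00113). Both changes were without overlap and were kept with the correction (0.996, adjusted p = 0.00587 and 0.50, adjusted p = 0.00218). Of the secreted class 3 semaphorins, SEMA3F, which acts through neuropilin-2, was upregulated in PC3 cells, from 47.9, 45.6 and 43.4 to 101, 82.1 and 76.3 CPM (0.90 ± 0.12, adjusted p = 0.00143), and in HCT116 cells, from 12.1, 11.7 and 12.5 to 15.2, 21.4 and 17.8 (0.56 ± 0.20, adjusted p = 0.0324). Neither change overlapped, and the HCT116 call was lost without hypoxic replicates 2 or 3 (adjusted p = 0.0774 to 0.128) and with the correction (0.01, adjusted p = 0.965). SEMA3G rose in T47D cells from 1.16, 1.02 and 1.996 to 3.48, 4.29 and 2.74 CPM (1.31 ± 0.35, adjusted p = 0.0303), a separation without overlap whose call was lost without normoxic replicates 1 or 2 or hypoxic replicates 1 or 2 (adjusted p = 0.0750 to 0.169) and with the correction (1.02, adjusted p = 0.0658). SEMA3C was downregulated in A549 cells, from 311, 311 and 331 to 214, 218 and 245 CPM (-0.49 ± 0.10, adjusted p = 0.00396), also without overlap, which the correction ended (-0.22, adjusted p = 0.108). In T47D cells, with 781, 576 and 772 CPM in normoxia and 802, 848 and 586 in hypoxia, its libraries overlapped (0.04 ± 0.24, adjusted p = 0.920). SEMA3A, which collapses growth cones, was downregulated in PC3 cells, from 119.7, 112 and 119 to 88.5, 93.6 and 97.3 CPM (-0.35 ± 0.09, adjusted p = 0.0157), a call lost without normoxic replicate 1 or hypoxic replicates 1 or 2 (adjusted p = 0.0649 to 0.0690) and with the correction, where its fold change fell under 1.2 (-0.24, adjusted p = 0.0418). The largest fitted change of a member, that of SEMA5B in A549 cells, rested on 0 to 2 counts in each normoxic and 15 to 18 in each hypoxic library (adjusted p = 0.00349), and the summed counts of 3 and 51 give a ratio of 17.3 with a 95% exact interval of 5.60 to 86.8 (counting error only). SEMA4G overlaps MRPL43 on the opposite strand over 22.9% of its exonic bases, so its counts, including the HCT116 call (0.65), may hold reads of that gene. That call was lost without normoxic replicates 1 or 3 or hypoxic replicates 2 or 3 (adjusted p = 0.0704 to 0.186) and with the correction (0.07, adjusted p = 0.840).

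Of the plexins tested, hypoxia upregulated 2 of 9 in A549 cells (PLXNA3 and PLXND1), 3 of 8 in HCT116 (PLXNA3, PLXNB2 and PLXND1), 3 of 9 in PC3 (PLXNA1, PLXNA2 and PLXNA4) and 0 of 8 in T47D cells, beside 17.6%, 23.3%, 16.6% and 6.55% of all genes. With the GC content and length correction no plexin was upregulated in A549, HCT116 or T47D cells and PLXNA2 and PLXNA4 were in PC3 cells, while the downregulated ones were PLXNA1 and PLXNC1 in A549, PLXNA1, PLXNB1, PLXNB3 and PLXNC1 in HCT116, PLXNB1, PLXNB2 and PLXNB3 in PC3 and PLXNB1 in T47D cells. PLXNA3 then had log2 fold changes of 0.33, adjusted p = 0.244 in A549 and -0.19, adjusted p = 0.580 in HCT116 cells, in place of the called 0.84 and 0.79, and PLXNA1 in PC3 cells one of -0.20, adjusted p = 0.0896 in place of 0.35. PLXNC1, the receptor of SEMA7A, was downregulated in A549 cells, from 0.735, 0.700 and 0.536 to 0.352, 0.203 and 0.269 CPM (log2 fold change -1.24 ± 0.44 (SE), adjusted p = 0.0449), and in HCT116 cells, from 1.84, 1.48 and 1.28 to 0.661, 0.360 and 0.453 (-1.65 ± 0.44, adjusted p = 0.00713). Groups did not overlap in these 2 lines, at 10 to 100 counts per library. The A549 call was lost with DESeq2, with the replicate block (-1.25 ± 0.47, adjusted p = 0.0534) and without normoxic replicates 1, 2 or 3 or hypoxic replicates 1, 2 or 3 (adjusted p = 0.0548 to 0.179). In PC3 and T47D cells the log2 fold changes were -0.71 ± 0.53, adjusted p = 0.323 and -1.36 ± 0.60, adjusted p = 0.146, with overlapping libraries. PLXNB1 was downregulated in HCT116 cells (28.1, 26.7 and 20.8 CPM in normoxia, 14.3, 15.3 and 14.5 in hypoxia, -0.81 ± 0.20, adjusted p = 0.00478) without overlap.

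PLXNA4 rose in PC3 cells from a low level, 0.490, 0.505 and 0.272 to 1.099, 1.48 and 1.38 CPM (log2 fold change 1.61 ± 0.35 (SE), adjusted p = 0.00903), with separate groups, and stayed called with the correction (1.19, adjusted p = 0.0273). PLXND1, a receptor of class 3 semaphorins in vessels, went from 26.02 ± 5.43 CPM (SD, n = 3) to 51.7, 49.1 and 47.8 CPM in HCT116 cells (0.90 ± 0.21, adjusted p = 0.00295) and from 71.1, 55.4 and 67.1 to 128, 105 and 75.3 in A549 cells (0.68 ± 0.17, adjusted p = 0.0101), both without overlap, and both calls were lost with the correction (-0.08, adjusted p = 0.757 and 0.22, adjusted p = 0.250). In PC3 cells it was called with the replicate block (0.47 ± 0.14, adjusted p = 0.0311) and not without it (adjusted p = 0.0915). PLXNB2 was upregulated in HCT116 cells, from 231, 165 and 163 to 272, 306 and 304 CPM (0.63 ± 0.21, adjusted p = 0.0229), a call lost without normoxic replicate 3 or hypoxic replicates 2 or 3 (adjusted p = 0.0561 to 0.0766). With the correction its direction turned in HCT116 (-0.30, adjusted p = 0.175) and in PC3 cells, where the uncorrected value of 0.12 was not called and the corrected one was (-0.32, adjusted p = 0.0166).

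Whether a hypoxia effect differed between the 4 lines was tested as the interaction of line and oxygen in 1 fit of all 24 libraries. It passed for 13 of 50 members tested (26%), beside 18.3% of all genes tested. These were SEMA6B, EPHB3, EFNA1, EFNB3, EPHA2, SEMA4A, EFNA5, SEMA3F, EPHB6, SEMA4B, EFNB2, EPHB2 and SEMA3C. For EFNB3 the test included HCT116 cells, where summed counts were 21 in normoxia and 6 in hypoxia, and for SEMA4A it included A549 cells with 14 and 1, so that these fitted effects are imprecise. EFNA3, which was upregulated in all 4 lines, did not pass (adjusted p = 0.162). The count was 5 without the libraries numbered 1 and 2 without those numbered 2, and the share of all genes is not given for these.

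Genes that work with these ligands and receptors were counted in the same fits, without the GC content and length correction. Of the semaphorin co-receptors (NRP1, NRP2, L1CAM, MET, ERBB2 and KDR), 5 of 5 tested were upregulated in A549 cells, 4 of 6 in HCT116, 4 of 6 in PC3 and 1 of 4 in T47D cells, and none was downregulated. For these lists as well, 17.6%, 23.3%, 16.6% and 6.55% of all genes tested were upregulated in the 4 lines, and 17.8%, 27%, 15.7% and 6.69% downregulated. L1CAM, an adhesion molecule that joins neuropilin-1 in the SEMA3A receptor, was upregulated in all 4 lines, with log2 fold changes of 1.19, 1.35, 0.85 and 0.98. NRP1, a co-receptor of class 3 semaphorins, rose in HCT116 cells from 5.03, 2.85 and 2.84 to 11.2, 22.5 and 20.3 CPM (log2 fold change 2.30 ± 0.31 (SE), adjusted p = 1.56e-04). Of 18 genes that act below plexins, 7 were upregulated and 1 downregulated in A549 cells (18 tested), 9 and 2 in HCT116 (17), 5 and 0 in PC3 (18) and 4 and 0 in T47D cells (16). DPYSL2, which codes for the collapsin response mediator CRMP2, was upregulated in all 4 lines (1.17, 1.78, 1.45 and 1.85). Of 19 genes below Eph receptors, with the ephrin sheddase ADAM10, 6 were upregulated and 1 downregulated in A549 cells, 11 and 2 in HCT116, 10 and 2 in PC3 and 0 and 0 of 19 tested in T47D cells. The adaptor gene NCK1 was the one downregulated in all of the first 3 lines (-0.64, -1.59 and -0.45), where NCK2 was upregulated (0.42, 0.78 and 0.50). Of 20 other guidance genes (netrins, SLITs, RGMs and their receptors), 1 of 12 tested was upregulated in A549 cells, 4 of 11 in HCT116 (with 1 downregulated), 7 of 13 in PC3 and 2 of 12 in T47D cells.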

How the data were processed

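Cells of 4 lines were sequenced as polyadenylated RNA with a directional kit. The authors trimmed reads with Trim Galore 0.3.3, aligned them to GRCh37 with HISAT2 (version 2.05 in the submitters' processing notes), used Picard 2.0.1 to drop fragments that aligned to several places and counted the rest per UCSC gene with HTSeq 0.5.4p3 (intersection-strict), and the deposited values are raw counts per gene in each library. The strand setting of the counting is not given in the sources used here.

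Counts were tested within each line with edgeR 4.0.16 (R 4.3.3; filterByExpr, TMM, quasi-likelihood F test) and p values were adjusted over all genes tested by the Benjamini-Hochberg method. A gene was called at a fold change above 1.2 with an adjusted p below 0.05. The SE of a log2 fold change is its size over the square root of F. The interaction of line and oxygen was tested in 1 fit of 24 libraries, and normoxic levels of the lines in 1 fit of the 12 normoxic libraries. Levels are CPM after TMM over all libraries, per kb of exon where genes are compared, with lengths, GC content and GRCh37 positions from GENCODE, which 21584 symbols matched (93.4%), 1486 of them by an older name. The scripts were tested on simulated counts.

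Library totals were 22698584 to 62850747 counts (median 56109795.5), with the fewest in normoxic PC3 replicate 1, hypoxic HCT116 replicate 3 (23497800) and normoxic PC3 replicate 3 (31779772). The floor was 3 counts, and floors and exact intervals cover counting error only.

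Alternatives were DESeq2 1.42.0, size factors, total counts, filters, thresholds, a replicate block, a correction of each library for GC content and transcript length (a spline offset), 1 fit of all libraries and leaving out each library. Same-numbered normoxic and hypoxic libraries deviated together with r of 0.05 to 0.344, over 0.1 in 10 of 12 pairs and in all pairs of PC3 and T47D cells. The r of HCT116 pairs 1 and 2 (0.344 and 0.258) and of A549 pair 1 (0.253) exceeded those of the PC3 pairs (0.118 to 0.158). Whether the numbers mark pairs in any line is thus not settled. They were used as pairing only in the values given with the replicate block. All other values and calls, and the interaction test as reported, come from fits without it.

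Members were chosen by symbol, and the members and lists were chosen with earlier results of these data known. Named with their values were members called alike in 3 or more lines or in opposite directions, the 5 largest called changes without overlap in each line, the 3 smallest interaction p values and the 3 highest normoxic levels per line, 19 genes in all. EFNA2, EFNA4, EFNA5, EPHA1, EPHA10, EPHB2, PLXNA1, PLXNA2, PLXNA3, PLXNB1, PLXND1, SEMA3A and SEMA4G, and the neighboring and pathway genes given by name, were named after their values were seen.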

Additional observations from a re-analysis of the deposited data

Results flagged for a closer look

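The hypoxia effect of 13 members differed between lines by the interaction test of edgeR, adjusted over all genes. The adjusted p was 3.83e-04 for SEMA6B, 0.00129 for EPHB3, 0.00296 for EFNA1, 0.00852 for EFNB3, 0.00959 for EPHA2, 0.0175 for SEMA4A, 0.0176 for EFNA5, 0.0178 for SEMA3F, 0.0198 for EPHB6, 0.0203 for SEMA4B, 0.0207 for EFNB2, 0.0469 for EPHB2 and 0.0471 for SEMA3C. In the fits within each line EFNA1 was called in both directions, and the other 12 were called in a single direction or, like SEMA4A, in no line. The fit of all 24 libraries, which gave the interaction, called SEMA4A down in A549 and up in T47D cells. The results of EFNB3 and SEMA4A include a line with few counts, summed over 3 libraries 21 in normoxia and 6 in hypoxia for EFNB3 in HCT116 cells and 14 and 1 for SEMA4A in A549 cells.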

How the results depend on the processing

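The correction for GC content and length gave 4 downregulated in A549, 8 up and 8 down in HCT116, 12 up and 4 down in PC3 and 1 down in T47D cells. Together with the replicate block it gave 5 down in A549, 11 up and 10 down in HCT116, 5 down in PC3 and 3 down in T47D cells, and 20 members with an interaction. With an adjusted p under 0.01, 7 were up and 1 down in A549, 12 up in HCT116, 0 down in PC3 and 3 up in T47D cells, and 5 had an interaction. A fold change over 1.5 left 1 down in A549 and 0 in PC3 cells. In A549 cells 1 was down with DESeq2, with no filter, with a mean count of at least 50 and with the replicate block. A single fit of all libraries gave 11 up and 0 down in PC3 and 14 up in T47D cells. Scaling to total counts moved the median of all genes to -0.13 in A549 and -0.12 in T47D cells and gave 9 up and 3 down in A549 and 5 up and 1 down in T47D cells. Shares of all genes are given above for the correction alone, and for the replicate block in PC3 and T47D cells. The other counts of this section stand without them, so whether the members moved apart from all genes cannot be read from these.

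Directions turned with the correction, without and with the block, for PLXND1 (-0.08 and -0.06) and PLXNA3 (-0.19 and -0.19) in HCT116 and PLXNA1 in PC3 cells (-0.201 and -0.199), and among the genes named by rule for SEMA6B in A549 (-0.33 and -0.32), EPHB4 in HCT116 (-0.027 and -0.027), PLXNB2 in HCT116 (-0.30 and -0.29) and PLXNB2 in PC3 cells (-0.32 and -0.32), and with both for EPHB6 in HCT116 cells (-0.52). The cause was not tested.

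With 1 library left out, 8 to 17 members were up and 1 down in A549, 14 to 22 up and 3 to 4 down in HCT116, 15 to 20 up and 0 to 3 down in PC3 and 0 to 11 up and 0 to 2 down in T47D cells. A normoxic difference then held for 44 to 47 members. Without all libraries of 1 replicate number the interaction held for 2 to 12. Of 41 calls of named members, 27 were kept with any library left out, and of 365 values under the other settings 335 kept direction and call, 26 lost the call and 4 turned.

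The replicate block gave 17 members with an interaction. In PC3 cells it added a call of SEMA3E (-0.58, adjusted p = 0.0393 by edgeR) and in T47D cells one of SEMA4G (0.72, adjusted p = 0.0270). It ended 2 calls, both in A549 cells (PLXNC1 and EPHA10), and no call in the other lines. Depth limits PLXNC1, SEMA5B and EPHB6 in A549 cells and EFNB3 in HCT116 cells, where libraries held few counts.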
